A study of Mus musculus with 24 samples.

Results

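Replication licensing and S phase genes were examined in liver as 36 genes listed by name and found by symbol among the 23972 genes of the count table. All 36 had a row. By role, 11 act in the licensing of origins, 6 in the firing of origins, 9 at the replication fork, 4 in the supply of nucleotides, and 6 in E2F and G1/S control. Liver RNA came from 24 female mice with loxP-flanked *Lmna* alleles on a C57BL/6J background. Controls lacked Adipoq-Cre, whereas *Lmna* ADKO mice carried it, so that *Lmna* was removed from adipocytes and the animals were lipodystrophic. Both genotypes were housed at 22°C and ate a diet with 60% of calories from fat from an age of 12 to 14 weeks. After 4 weeks on this diet they were given the treatment or vehicle, and they were euthanized 8 weeks later. The treatment, called a rescue in the labels, was read as an AAV8 vector that expresses FGF21, and the vehicle was PBS with Pluronic and no vector. There were 7 vehicle-treated controls (WT.Veh), 3 treated controls (WT.Tx), 6 vehicle-treated *Lmna* ADKO mice (KO.Veh), and 8 treated *Lmna* ADKO mice (KO.Tx).

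Each origin of replication is licensed in G1, when the origin recognition complex with CDC6 and CDT1 loads the ring-shaped MCM helicase onto DNA, and geminin blocks CDT1 from doing so again in the same cycle. The kinase made of DBF4 and CDC7, with CDC45 and the GINS complex, then turns the loaded helicase into a moving fork, at which the clamp PCNA is loaded by replication factor C and nucleotides come from ribonucleotide reductase, thymidylate synthase, and thymidine kinase. Many of these genes are targets of E2F transcription factors, and most hepatocytes of adult liver are quiescent but can reenter the cycle.

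Libraries held 19863304 to 21510054 counts on genes. Levels below are CPM, the count of a gene relative to the total of its library after TMM scaling, and the detection floor of 3 counts stands for 0.14 to 0.151 CPM. *Lmna* itself does not check the genotype in liver, because Adipoq-Cre acts in adipocytes, and it was at 18.6 ± 2.5 CPM (SD, n = 7) in WT.Veh and 26.7 ± 2.6 CPM (SD, n = 6) in KO.Veh. *Fgf21* was at 4.01 ± 3.18 CPM (SD, n = 7) in WT.Veh, 4.78 ± 2.29 (SD, n = 3) in WT.Tx, 7.99 ± 2.48 (SD, n = 6) in KO.Veh, and 5.36 ± 2.41 (SD, n = 8) in KO.Tx, and therefore did not set the treated livers apart. A list of 8 hepatocyte markers summed to between 67650 and 142500 CPM in every library. In 3 libraries, WT.Veh replicate 3, WT.Tx replicate 3, and KO.Tx replicate 7, the slope of log2 CPM on log2 gene length was -0.15, -0.29, and -0.33, outside the range of -0.11 to 0.13 of the others. Animal numbers in the labels had 3 digits in 6 WT.Veh, 1 KO.Veh, and 4 KO.Tx mice and 4 digits in the rest. Under vehicle this number series nearly followed the genotype and left too few mice for a comparison within a series, and counts from a fit with the series as a covariate are given below. Of the 36 genes, 21 were highest in KO.Tx replicate 3 within its group, and 25 were lowest in KO.Veh replicate 4 within its group, and where leaving out either library ended or made a call, the value or the count without it is given.

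The genes were expressed at low levels in control liver. Mean levels in WT.Veh ran from 0.0556 CPM for *Orc1* to 32 CPM for *Mcm10*. Per kb of exonic length, which allows genes to be compared, *Pcna*, the sliding clamp, led with 11.2 CPM per kb (10.3 to 12.8 over 7 livers). *Tk1*, the cytosolic thymidine kinase, followed with 4.69 CPM per kb, *Gmnn*, which encodes geminin, with 4.55, and *Mcm10*, a factor that joins the helicase at firing, with 4.17. Among the helicase subunits, *Mcm7* was highest with 2.87 CPM per kb. At the low end stood *Orc1*, the largest subunit of the origin recognition complex, with 0.016 CPM per kb, *Cdc7* with 0.031, and *Cdc6* with 0.0406. Of 35 pairs of neighbours in this order, 33 had ranges that overlapped between livers, the exceptions being *Pcna* above *Tk1* and *Dbf4* above *Cdc6*. A filter on low counts, edgeR's filterByExpr, kept 34 of the 36 genes and dropped *Orc1* and *Cdc7*.

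**Figure D1:**
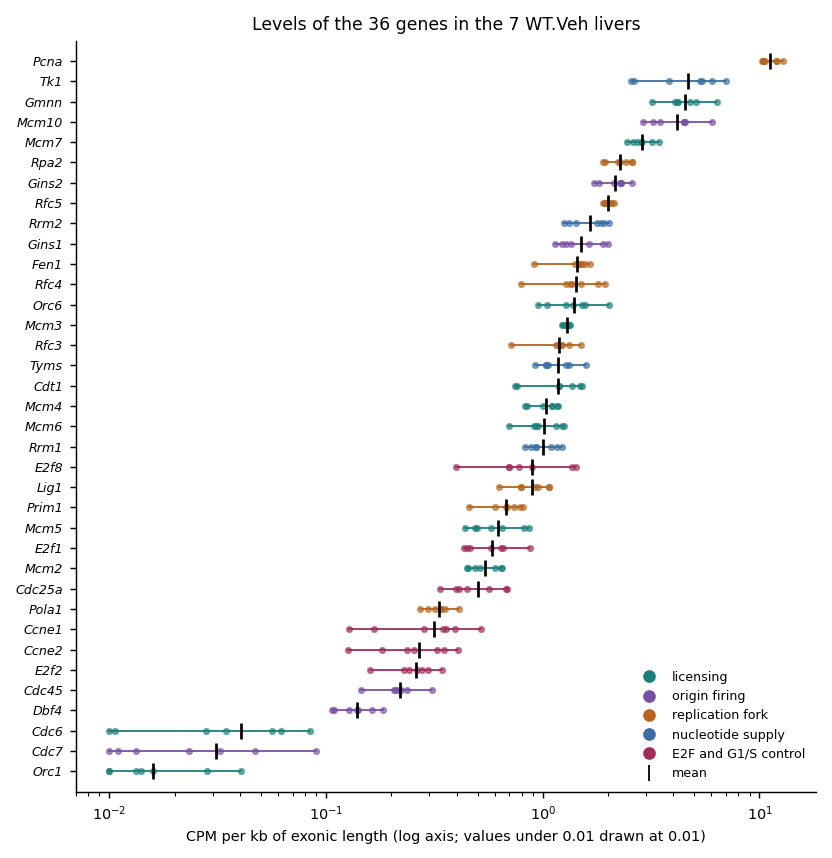
Levels of the 36 genes in vehicle-treated control liver, in CPM per kb of exonic length on a log axis, with each of 7 livers as a point, the range as a line, and the mean as a black tick, coloured by role. *Pcna* stands above all others at 11.2 CPM per kb, and *Orc1*, *Cdc7*, and *Cdc6* lie lowest.

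Promoter windows of 300 bases, from 250 bases before the start site to 50 bases from it on, were taken from RefSeq (GRCm38.p6), which held one for 31 of the 36 genes. No window was listed for *Mcm4*, *Gmnn*, *Gins1*, *Gins2*, and *Ccne2*. The start sites of 24 of these windows lay within 100 bases of the start annotated by GENCODE. The E2F motif was searched on both strands as TTTCCCGC, TTTCGCGC, TTTGCCGC, and TTTGGCGC, the NF-Y motif as CCAAT, and the CHR motif, an element of mitotic genes, as TTTGAA and TTCGAA. No search word contains another, but matches may share bases, also on opposite strands. An E2F match was present in 11 of the 31 windows (35.5%), against 2.26% of all 32851 windows of the same length. A CCAAT match was present in 19 (61.3%), against 37.4% of all windows, and a CHR match in 8 (25.8%), against 19.2%. These shares are descriptions with no test, and a window without a match says only that these letters are not in it.

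The windows of 6 genes are printed. They were chosen by a small adjusted p between genotypes under vehicle, or by passing that test with an E2F match. *Mcm3*, *Dbf4*, *Cdc45*, and *Mcm2* had the smallest adjusted p under vehicle apart from *E2f1*, whose listed window starts well inside the annotated gene and is not printed. *Mcm5* and *Mcm6* were added after their values were seen, as the other genes that passed the test under vehicle and hold an E2F match. Each window is written 5′ to 3′ on the strand of its gene, with E2F matches in capitals. *Mcm3* lies at chr1:20820263-20820562 on the minus strand, *Dbf4* at chr5:8422667-8422966 on the minus strand, *Cdc45* at chr16:18811923-18812222 on the minus strand, *Mcm2* at chr6:88898731-88899030 on the minus strand, *Mcm5* at chr8:75109259-75109558 on the plus strand, and *Mcm6* at chr1:128359656-128359955 on the minus strand.
Mcm3: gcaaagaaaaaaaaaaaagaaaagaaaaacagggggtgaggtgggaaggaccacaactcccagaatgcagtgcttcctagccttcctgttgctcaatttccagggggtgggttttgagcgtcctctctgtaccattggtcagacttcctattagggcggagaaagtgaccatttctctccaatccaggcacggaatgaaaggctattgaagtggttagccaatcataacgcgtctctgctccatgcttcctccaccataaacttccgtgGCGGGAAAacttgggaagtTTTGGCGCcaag
Dbf4: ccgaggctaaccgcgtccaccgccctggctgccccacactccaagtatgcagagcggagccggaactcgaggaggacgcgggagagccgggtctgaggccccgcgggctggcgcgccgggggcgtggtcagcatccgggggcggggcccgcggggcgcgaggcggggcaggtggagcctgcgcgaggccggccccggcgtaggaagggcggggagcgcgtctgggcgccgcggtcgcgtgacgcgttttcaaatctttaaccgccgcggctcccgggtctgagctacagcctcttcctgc
Cdc45: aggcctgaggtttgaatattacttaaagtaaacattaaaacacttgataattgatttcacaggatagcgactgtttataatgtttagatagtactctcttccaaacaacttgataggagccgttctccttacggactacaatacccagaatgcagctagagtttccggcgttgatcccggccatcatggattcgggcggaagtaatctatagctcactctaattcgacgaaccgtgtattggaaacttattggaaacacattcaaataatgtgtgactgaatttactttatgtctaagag
Mcm2: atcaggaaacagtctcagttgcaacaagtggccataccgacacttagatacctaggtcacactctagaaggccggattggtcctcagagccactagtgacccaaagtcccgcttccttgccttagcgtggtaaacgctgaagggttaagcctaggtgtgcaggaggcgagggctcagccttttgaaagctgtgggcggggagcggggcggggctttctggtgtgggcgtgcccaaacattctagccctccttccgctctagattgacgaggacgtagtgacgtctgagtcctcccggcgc
Mcm5: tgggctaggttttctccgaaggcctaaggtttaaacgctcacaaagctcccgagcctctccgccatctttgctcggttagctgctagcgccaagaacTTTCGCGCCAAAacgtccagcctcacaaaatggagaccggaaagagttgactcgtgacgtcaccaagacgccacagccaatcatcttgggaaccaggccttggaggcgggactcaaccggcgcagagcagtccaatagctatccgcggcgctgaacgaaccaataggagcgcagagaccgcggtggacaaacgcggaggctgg
Mcm6: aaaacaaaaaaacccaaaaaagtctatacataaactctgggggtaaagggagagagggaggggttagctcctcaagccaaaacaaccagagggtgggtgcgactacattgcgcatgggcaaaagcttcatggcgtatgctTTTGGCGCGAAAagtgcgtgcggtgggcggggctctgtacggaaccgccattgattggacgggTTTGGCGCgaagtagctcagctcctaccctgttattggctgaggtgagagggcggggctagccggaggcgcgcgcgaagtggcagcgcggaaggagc

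Counted from the start site, the matches of *Mcm3* began 19 and 38 bases downstream of it. In *Mcm5* a pair of overlapping matches began at -153 and -149. In *Mcm6* a pair of overlapping matches began at -110 and -106 and another match at -47. *Dbf4*, *Cdc45*, and *Mcm2* had no match to these letters. The window of *Cdc45* held 2 CCAAT and 2 CHR matches, that of *Mcm2* held 1 of each, and that of *Dbf4* held 1 CHR match. Of the genes that passed the test under vehicle, 3 of 10 held an E2F match, and of those that did not pass, 8 of 21 with a window did (38.1%). These counts include the 7 windows whose start site lay farther than 100 bases from the annotated start. Among them, *Cdc6*, *Mcm7*, and *E2f2*, which did not pass, held an E2F match. *E2f1*, which passed, and *Pcna*, *Fen1*, and *Lig1*, which did not, held none.

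*Lmna* ADKO and control livers were first compared under vehicle, to ask how lipodystrophy goes with the expression of these genes. Parts of the MCM helicase, *Dbf4* and *Cdc45* of origin firing, *Rfc4* of the clamp loader, and the G1/S genes *E2f1* and *Ccne1* rose. These rises were 1.68-fold to 2.43-fold, whereas *Tk1* fell by 1.36 on the log2 scale. To pass, a gene needed a fold change over 1.5 and a Benjamini-Hochberg adjusted p below 0.05 in edgeR's quasi-likelihood test over all 23972 genes. By this rule 10 of the 36 genes passed, 9 higher and 1 lower, while 8.48% of all genes passed, 5.12% higher and 3.36% lower. The median log2 fold change of the 36 genes was 0.31, and that of all genes tested was 0.00. *Orc1* was at or under the floor in every WT.Veh library. The median was 0.31 with the WT.Veh level of *Orc1* set to the floor and 0.27 without *Orc1*. By the adjusted p alone 12 genes passed, against 15.1% of all genes, the added ones being *Fen1* with a log2 fold change of 0.58 and *Mcm4* with 0.56, just under the fold threshold. *Mcm3*, with 0.75, was the nearest above it. With the number series as a covariate 14 genes passed, the same 10 among them, as did 1604 of all 23972 genes. Without KO.Veh replicate 4 it was 13, again with the same 10, and the count over all genes is not given for that fit. In liver as a whole tissue, a change in the share of cells that express a gene and a change in RNA per cell cannot be told apart.

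**Figure D2:**
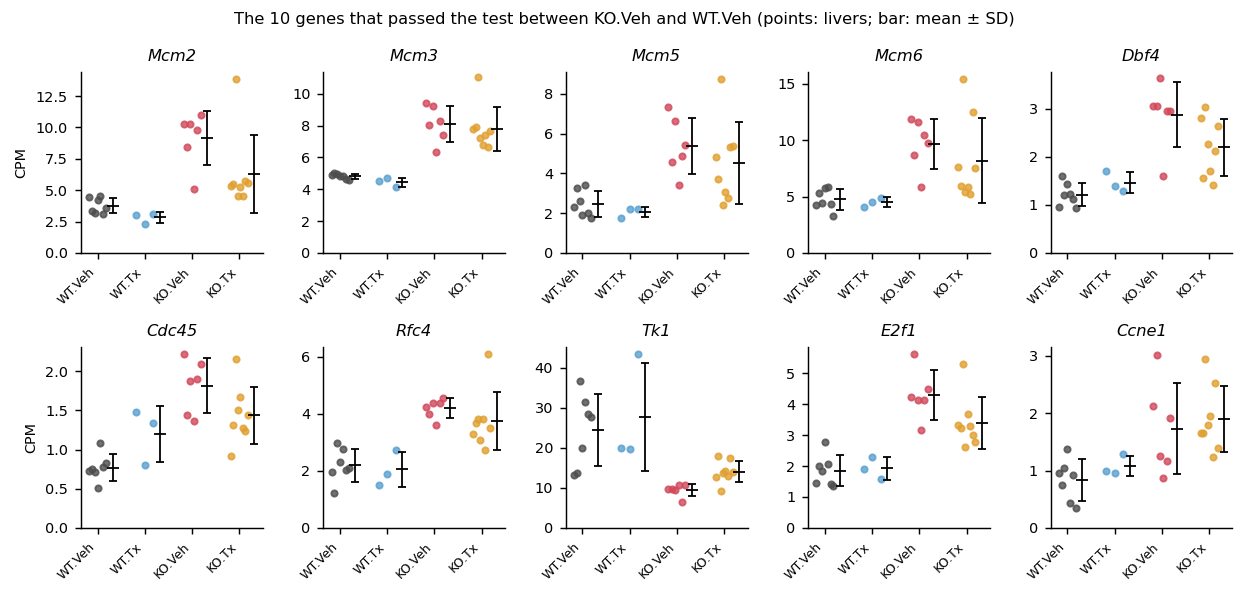
CPM of the 10 genes that passed the test under vehicle, with each liver as a point and the mean ± SD beside it, for WT.Veh (n = 7), WT.Tx (n = 3), KO.Veh (n = 6), and KO.Tx (n = 8). The 9 higher genes sit higher in KO.Veh than in WT.Veh on average, *Tk1* is lower in every KO.Veh liver, and 1 KO.Tx liver stands above the rest for *Mcm2* at 13.9 CPM.

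Of the 11 licensing genes, 4 rose and none fell, and all 4 encode subunits of the MCM helicase. *Mcm2* was at 3.11, 3.56, and 4.52 CPM (lowest, median, and highest of 7 livers) in WT.Veh and at 5.06, 10.04, and 10.98 CPM (of 6 livers) in KO.Veh. All KO.Veh livers were above all WT.Veh livers, and replicate 4 was the lowest of them. The log2 fold change of *Mcm2* was 1.28 ± 0.22 (SE, edgeR adjusted p = 0.000152).
*Mcm3* was nearly constant over WT.Veh livers, at 4.58, 4.83, and 5.01 CPM, and reached 6.33, 8.15, and 9.40 CPM in KO.Veh, with no overlap between the groups. *Mcm3* differed by a log2 fold change of 0.75 ± 0.11 (SE, edgeR adjusted p = 3.73e-05). *Mcm5* was at 1.75, 2.31, and 3.44 CPM in WT.Veh and at 3.41, 5.14, and 7.32 CPM in KO.Veh, where 1 liver fell within the range of the controls, with a log2 fold change of 1.12 ± 0.24 (SE, edgeR adjusted p = 0.00188).
*Mcm6* was at 3.27, 4.42, and 5.85 CPM in WT.Veh and at 5.84, 10.1, and 11.9 CPM in KO.Veh, and again the lowest KO.Veh liver, replicate 4, touched the controls. On the log2 scale *Mcm6* rose by 1.03 ± 0.22 (SE, edgeR adjusted p = 0.00222). All livers of KO.Veh were above those of WT.Veh in 7 of the 36 genes and below them in 1, while this held for 4.22% and 3.73% of all genes.

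The remaining licensing genes did not pass the test. *Mcm4*, the helicase subunit near the fold threshold, was at 3.70 ± 0.52 CPM (SD, n = 7) in WT.Veh and 5.47 ± 0.76 CPM (SD, n = 6) in KO.Veh, with no overlap and an edgeR adjusted p of 0.0101. *Mcm7*, the most abundant subunit, was at 12.7 ± 1.5 CPM (SD, n = 7) and 12.3 ± 1.4 CPM (SD, n = 6), a log2 difference of -0.05 with an interval of -0.26 to 0.17 (2 SE each side). *Gmnn* differed by -0.09 on the log2 scale with an interval of -0.39 to 0.20, *Orc6*, the smallest subunit of the origin recognition complex, by 0.05 with an interval of -0.27 to 0.38, and *Cdt1*, the loading factor, by -0.14 with an interval of -0.62 to 0.34. *Cdt1* lies within the locus of Gm20388 on the same strand, so its reads may be shared. *Cdc6*, the loading ATPase, had 1 to 9 counts in WT.Veh and 4 to 20 counts in KO.Veh (edgeR adjusted p = 0.117). *Orc1* had 0 to 3 counts in WT.Veh and 2 to 8 counts in KO.Veh, where 3 of 6 libraries were also at or under the floor. Its mean in KO.Veh was 1.27-fold the floor of 3 counts in WT.Veh, which is no lower bound of the difference. *Orc1* did not pass the test (edgeR adjusted p = 0.15).

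The subunits of the hexamer were also set against *Mcm7* within each liver. *Mcm7* was picked after its values and those of the other subunits were seen, so that these ratios restate the differences above on another scale and are given as a description, with no test. With vehicle, the log2 ratio of *Mcm2* to *Mcm7* was -1.76 ± 0.31 (SD, n = 7) in WT.Veh and -0.46 ± 0.27 (SD, n = 6) in KO.Veh. The mean ratio in *Lmna* ADKO livers was higher by 0.78 for *Mcm3*, 0.61 for *Mcm4*, 1.17 for *Mcm5*, and 1.06 for *Mcm6*, and for each subunit all 6 KO.Veh livers were above all 7 WT.Veh livers. With the treatment, the differences were 1.03 for *Mcm2* and 0.78 for *Mcm3*, with 8 of 8 KO.Tx livers above all WT.Tx livers. They were 1.01 for *Mcm5* and 0.74 for *Mcm6*, with 7 of 8 livers above, and 0.32 for *Mcm4*, with 5 of 8 above. *Mcm7* shares 421 bases with *Ap4m1* and 64 bases with *Cops6* on the opposite strand, and since the strand setting of the counting is not stated, its level may include reads of these genes.

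**Figure D3:**
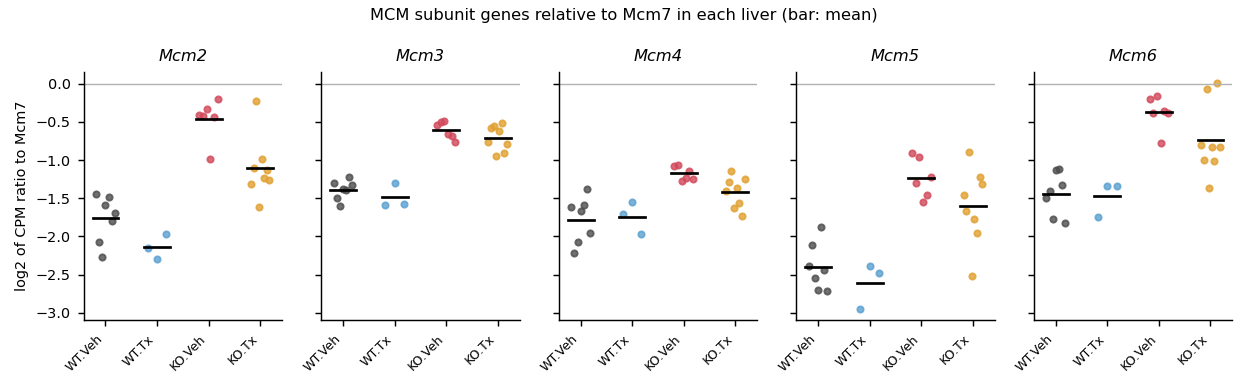
Log2 ratio of the CPM of *Mcm2*, *Mcm3*, *Mcm4*, *Mcm5*, and *Mcm6* to that of *Mcm7*, with each liver as a point and the group mean as a bar, for WT.Veh (n = 7), WT.Tx (n = 3), KO.Veh (n = 6), and KO.Tx (n = 8). For all 5 genes the KO.Veh livers lie above all WT.Veh livers.

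Of the 6 genes of origin firing, 2 rose and none fell. *Dbf4*, the regulatory subunit of the kinase that fires origins, was at 0.926, 1.22, and 1.59 CPM in WT.Veh and at 1.61, 3.01, and 3.63 CPM in KO.Veh, where replicate 4 again was lowest and lay just above the controls. The log2 fold change of *Dbf4* was 1.25 ± 0.20 (SE, edgeR adjusted p = 6.35e-05). *Cdc45*, which binds the helicase at the fork, was at 0.506, 0.75, and 1.08 CPM in WT.Veh and at 1.36, 1.89, and 2.22 CPM in KO.Veh, with no overlap, a log2 fold change of 1.23 ± 0.21 (SE), and an edgeR adjusted p of 0.000124. *Cdc45* shares 209 bases at its start with *Ufd1* on the opposite strand, which was at 25.4 ± 1.9 CPM (SD, n = 7) and 28.1 ± 1.6 CPM (SD, n = 6). The catalytic partner of *Dbf4*, *Cdc7*, had 0 to 8 counts in WT.Veh and 3 to 9 counts in KO.Veh (edgeR adjusted p = 0.22). *Gins1* and *Gins2*, subunits of the GINS complex, differed by -0.05 and -0.11 on the log2 scale, with intervals of -0.39 to 0.29 and -0.42 to 0.21. *Gins2* lies opposite to Gm20388 over 10672 bases. *Mcm10* was at 32 ± 8.2 CPM (SD, n = 7) in WT.Veh and 24.3 ± 6.7 CPM (SD, n = 6) in KO.Veh, a difference of -0.40 ± 0.19 (SE) that did not pass (edgeR adjusted p = 0.174).

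At the fork, 1 of 9 genes rose. *Rfc4*, a subunit of the clamp loader, was at 1.22, 2.10, and 2.99 CPM in WT.Veh and at 3.60, 4.32, and 4.57 CPM in KO.Veh, so that all KO.Veh livers were above all controls. *Rfc4* differed by a log2 fold change of 0.94 ± 0.18 (SE, edgeR adjusted p = 0.000584). *Rfc4* overlaps *Eif4a2*, a far more abundant gene on the opposite strand, by 194 bases, and *Eif4a2* was at 256.5 ± 41.1 CPM (SD, n = 7) and 267.6 ± 27.3 CPM (SD, n = 6). The other clamp loader subunits measured were *Rfc3*, with a difference of 0.35 (edgeR adjusted p = 0.169), and *Rfc5*, with a difference of -0.13 and an interval of -0.36 to 0.10. *Fen1*, the flap endonuclease that trims Okazaki fragments, was at 3.47 ± 0.58 CPM (SD, n = 7) and 5.20 ± 0.70 CPM (SD, n = 6), with an edgeR adjusted p of 0.00787 and a fold under the threshold. *Lig1*, which joins those fragments, differed by 0.46 (edgeR adjusted p = 0.0533), and *Rpa2*, a subunit of the protein that coats single-stranded DNA, by 0.27 (edgeR adjusted p = 0.0949). *Pcna* was at 26.9 ± 2.5 CPM (SD, n = 7) and 29.9 ± 3.5 CPM (SD, n = 6), a difference of 0.15 with an interval of -0.02 to 0.32. *Pola1* and *Prim1*, of the primase complex that starts each strand, differed by 0.20 and 0.04, with intervals of -0.12 to 0.51 and -0.29 to 0.38.

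Of the 4 genes of nucleotide supply, 1 fell and none rose. *Tk1* was at 13.2, 27.7, and 36.5 CPM in WT.Veh and at 6.43, 9.73, and 10.8 CPM in KO.Veh, so that every KO.Veh liver was below every control. *Tk1* differed by a log2 fold change of -1.36 ± 0.23 (SE, edgeR adjusted p = 0.000257). *Tk1* and *Afmid*, a gene of tryptophan catabolism on the opposite strand, share 169 bases that hold the start of both. *Afmid* was at 130.7 ± 36.4 CPM (SD, n = 7) in WT.Veh but 50.7 ± 19.8 CPM (SD, n = 6) in KO.Veh. It fell by 1.36 ± 0.28 on the log2 scale (SE, edgeR adjusted p = 0.00158), while *Tk1* fell by 1.36. The counts do not show how many reads of *Tk1* lay in the shared bases, and the part of *Afmid* in the result was not tested. *Rrm1* and *Rrm2*, the large and small subunits of ribonucleotide reductase, differed by 0.26 (edgeR adjusted p = 0.187) and 0.66 (edgeR adjusted p = 0.0644). *Tyms*, thymidylate synthase, was at 7.17 ± 1.42 CPM (SD, n = 7) and 7.19 ± 0.55 CPM (SD, n = 6), a difference of 0.01 with an interval of -0.35 to 0.36.

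Of the 6 genes of E2F and G1/S control, 2 rose and none fell. *E2f1*, an activating E2F factor, had the smallest adjusted p of all 36 genes. It was at 1.36, 1.82, and 2.76 CPM in WT.Veh and at 3.17, 4.17, and 5.63 CPM in KO.Veh, with no overlap, and its log2 fold change was 1.22 ± 0.18 (SE, edgeR adjusted p = 2.63e-05). *Ccne1*, cyclin E1, was at 0.341, 0.924, and 1.38 CPM in WT.Veh and at 0.877, 1.59, and 3.02 CPM in KO.Veh. These ranges overlapped, the log2 fold change was 1.04 ± 0.29 (SE, edgeR adjusted p = 0.0127), and without KO.Veh replicate 2 the edgeR adjusted p was 0.0603. *Ccne2*, cyclin E2, differed by 0.67 (edgeR adjusted p = 0.0823). *E2f2*, another activator, differed by 0.12 with an interval of -0.54 to 0.77, and *Cdc25a*, a phosphatase that activates cyclin-dependent kinases, by -0.09 with an interval of -0.43 to 0.26. *E2f8*, an atypical E2F that represses, was at 4.87 ± 2.03 CPM (SD, n = 7) and 3.88 ± 1.05 CPM (SD, n = 6), with an edgeR adjusted p of 0.413. Gm2788 lies opposite to *E2f8* over 3639 bases and fell by 1.28 on the log2 scale (edgeR adjusted p = 3.35e-06), so part of the counts of *E2f8* may be shared with it.

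**Figure D4:**
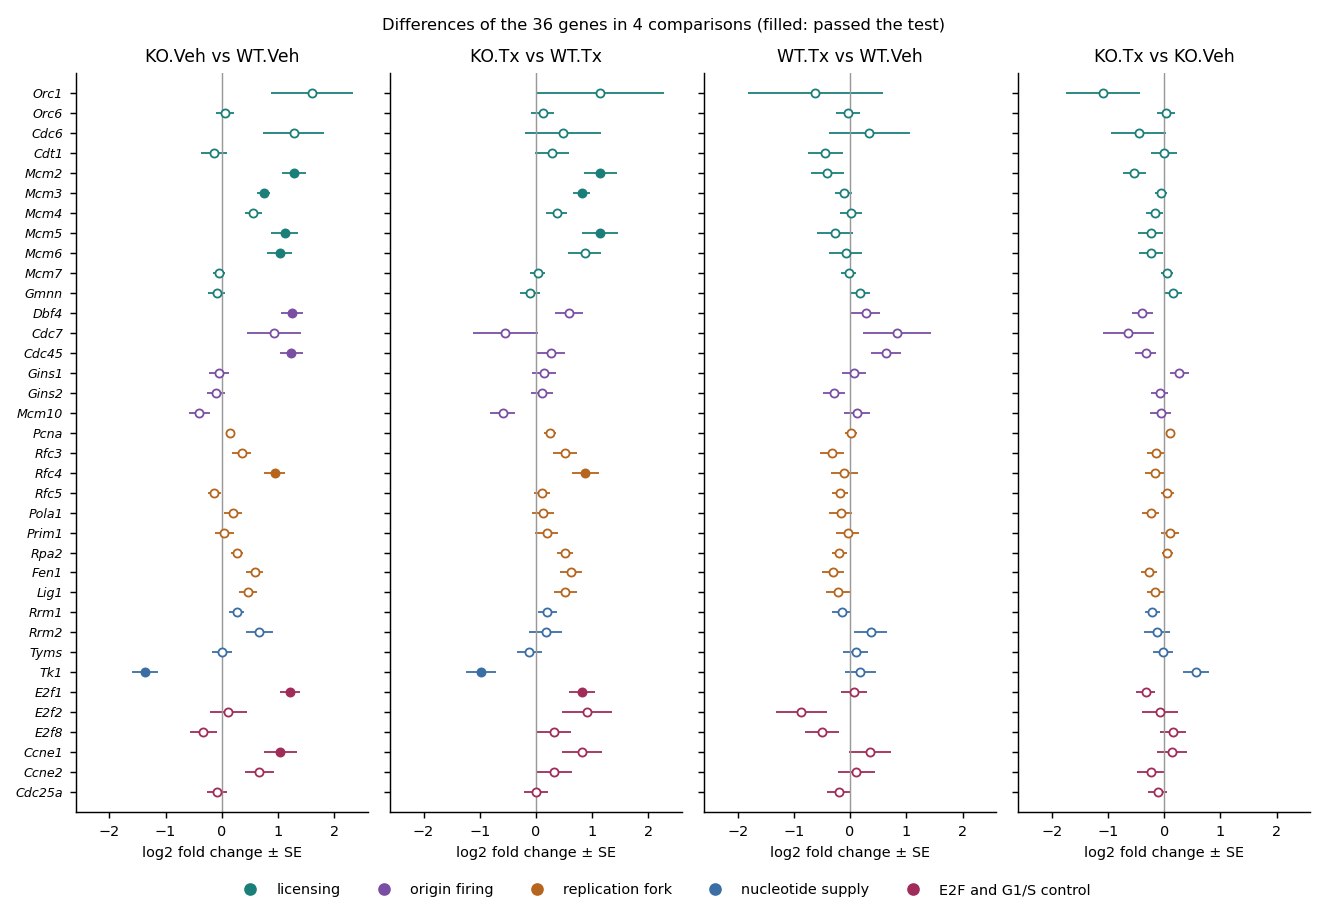
Log2 fold changes ± SE of the 36 genes in the 4 comparisons, ordered and coloured by role, with filled points where a gene passed the test. Filled points appear for 10 genes under vehicle and 6 under treatment and for none between treatment and vehicle, and the wide bars of *Orc1*, *Cdc6*, and *Cdc7* belong to genes at or near the floor of 3 counts.

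The other replication and S phase genes, 80 in 6 lists, were read for context. Of these, 9 rose (11.25%) and 1 fell (1.25%) with vehicle, against 5.12% and 3.36% of all genes, and their median log2 fold change was 0.09. With so few genes in most of the lists, a single gene is near or above that share. In the list of 14 further licensing and firing genes, 1 rose, *Topbp1*, a scaffold for firing, which was at 11.4 ± 1.1 CPM (SD, n = 6) in KO.Veh and at 7.49 ± 1.07 CPM (SD, n = 7) in WT.Veh. Among 24 further fork genes, 3 rose and 1 fell. The risers were *Asf1b* and *Chaf1a*, which bring histones to new DNA, with log2 fold changes of 1.38 and 1.09, and *Top2a*, a topoisomerase, with 1.46, while *Dna2*, a nuclease, fell by 0.72. In the list of 8 further genes of nucleotide supply, *Dck*, deoxycytidine kinase, rose by 0.73 on the same scale. Among 20 further genes of E2F and G1/S control, *Ccna2*, cyclin A2, rose by 1.25. Of 7 inhibitors of cyclin-dependent kinases, *Cdkn1a*, which encodes p21, was at 55.8 ± 23.8 CPM (SD, n = 6) in KO.Veh and at 5.33 ± 3.97 CPM (SD, n = 7) in WT.Veh. It rose by 3.38 ± 0.46 on the log2 scale (SE, edgeR adjusted p = 3.64e-05). Of 7 chromatin genes of S phase, *Uhrf1* rose by 1.99 and *Hells* by 1.37, both of which act in the upkeep of DNA methylation.

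Of 10 genes of G2 and mitosis, 8 rose with vehicle, against 5.12% of all genes (*Mki67*, *Cdk1*, *Ccnb1*, *Ccnb2*, *Plk1*, *Aurkb*, *Bub1*, and *Foxm1*), and none fell. The median log2 fold change of this list was 1.43, and that of the 36 replication genes 0.31. *Foxm1*, a factor that drives mitotic genes, rose by 1.54 (edgeR adjusted p = 0.00147), *Aurkb*, a mitotic kinase, by 1.45 (edgeR adjusted p = 0.00199), and *Ccnb1*, cyclin B1, by 1.70 (edgeR adjusted p = 0.005). Their summed level was 6.35, 7.54, and 11.1 CPM (lowest, median, and highest) in WT.Veh and 9.35, 18.5, and 30.1 CPM in KO.Veh. The lowest of the latter was replicate 4, the library in which most replication genes were lowest as well.

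Markers of other cell types were measured beside these results, and their part in them was not tested. Under vehicle, 2 of 8 hepatocyte markers fell (*Cps1* and *Serpina1a*), and their summed level was 78120 to 135800 CPM in WT.Veh and 68340 to 104700 CPM in KO.Veh. Of 6 cholangiocyte markers, 2 rose (*Spp1* and *Cftr*), with sums of 27.1 to 51.2 CPM and 85.8 to 195.9 CPM, which did not overlap. Of 8 stellate cell and fibroblast markers, 2 rose (*Lrat* and *Acta2*), with sums of 246.5 to 322.1 CPM and 306.0 to 411.0 CPM. Of 10 macrophage markers, 1 rose (*Gpnmb*), with sums of 637.8 to 899.0 CPM and 457.4 to 774.0 CPM, and of 6 endothelial markers, 1 rose (*Lyve1*), with sums of 216.9 to 273.2 CPM and 206.8 to 261.5 CPM. Neither the 8 T and NK cell markers, with sums of 7.33 to 14.2 CPM and 5.65 to 12.4 CPM, nor the 6 B cell and plasma cell markers, with 9.11 to 24.2 CPM and 10.1 to 20.5 CPM, nor the 6 neutrophil markers, with 5.26 to 21.1 CPM and 7.66 to 13.2 CPM, held a gene that passed the test. Of 8 erythroid markers, 1 rose (*Alas2*) and 2 fell (*Klf1* and *Epor*), with sums of 287.3 to 2043 CPM and 712.2 to 3761 CPM. Of 5 adipocyte markers, *Cidec* rose, which steatotic hepatocytes also express, and sums were 1.27 to 6.81 CPM and 67.4 to 160.3 CPM. *Cidec* alone carried this rise, since *Adipoq*, *Plin1*, and *Retn* had log2 differences of -1.32, -1.37, and -0.94 and did not pass, and *Lep*, another defining adipocyte gene, was at 0 in every library of both groups.

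The genotypes were next compared under treatment. Of the 36 genes, 6 passed the test, 5 higher and 1 lower, while 2.88% of all genes passed, 1.61% higher and 1.26% lower. The 36 genes had a median log2 fold change of 0.30, and all genes tested one of 0.02. All 8 KO.Tx livers were above all 3 WT.Tx livers in 8 genes and below them in 1, against 2.98% and 2.37% of all genes. The 6 genes are among the 10 that passed under vehicle, but the comparisons use different livers and were not tested against each other except by the interaction below.

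*Mcm2* was at 3.04, 2.35, and 3.15 CPM in the WT.Tx livers and at 4.52, 5.41, and 13.9 CPM (lowest, median, and highest of 8) in KO.Tx. The highest value belongs to replicate 3, and the other KO.Tx livers lay between 4.52 and 5.70 CPM, all above WT.Tx. The log2 fold change of *Mcm2* was 1.15 ± 0.29 (SE, edgeR adjusted p = 0.0207).
*Mcm3* was at 4.52, 4.69, and 4.13 CPM in WT.Tx and at 6.64, 7.56, and 11.0 CPM in KO.Tx, without overlap. *Mcm3* differed by a log2 fold change of 0.81 ± 0.15 (SE, edgeR adjusted p = 0.00198). *Mcm5* was at 1.76, 2.20, and 2.21 CPM in WT.Tx and at 2.42, 4.27, and 8.75 CPM in KO.Tx, a wide spread that did not overlap with WT.Tx, with a log2 fold change of 1.14 ± 0.32 (SE, edgeR adjusted p = 0.0413). Without KO.Tx replicate 3 that of *Mcm5* was 0.92 (edgeR adjusted p = 0.0654).
*Rfc4* was at 1.52, 1.90, and 2.74 CPM in WT.Tx and at 2.75, 3.60, and 6.11 CPM in KO.Tx, where the lowest liver lay barely above the highest of WT.Tx. On the log2 scale *Rfc4* rose by 0.88 ± 0.24 (SE, edgeR adjusted p = 0.0304). *E2f1* was at 1.90, 2.30, and 1.57 CPM in WT.Tx and at 2.61, 3.26, and 5.31 CPM in KO.Tx, with a log2 fold change of 0.82 ± 0.23 (SE, edgeR adjusted p = 0.0429). Without KO.Tx replicate 3 that of *E2f1* was 0.69 (edgeR adjusted p = 0.0798).
*Tk1* was at 20.1, 19.7, and 43.3 CPM in WT.Tx and at 9.29, 13.9, and 17.9 CPM in KO.Tx. All KO.Tx livers were below all WT.Tx livers, and WT.Tx replicate 3 stood far above the other 2. *Tk1* differed by a log2 fold change of -0.98 ± 0.26 (SE, edgeR adjusted p = 0.0351), and without that library it was -0.51 (edgeR adjusted p = 0.449). Without KO.Tx replicate 3 it was -0.92 (edgeR adjusted p = 0.062). *Afmid* differed by -0.68 ± 0.32 (SE, edgeR adjusted p = 0.279) in the same comparison.

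The other genes that passed under vehicle did not pass here. *Mcm6* was at 4.04, 4.54, and 4.89 CPM in WT.Tx and at 5.26, 6.72, and 15.4 CPM in KO.Tx, with no overlap, a log2 difference of 0.87 ± 0.29 (SE), and an edgeR adjusted p of 0.0949. *Dbf4* was at 1.71, 1.40, and 1.28 CPM in WT.Tx and at 1.43, 2.19, and 3.03 CPM in KO.Tx, which overlapped, with a difference of 0.58 (edgeR adjusted p = 0.224). *Cdc45* was at 1.47, 0.799, and 1.34 CPM in WT.Tx and at 0.919, 1.37, and 2.16 CPM in KO.Tx, with a difference of 0.26 (edgeR adjusted p = 0.643). *Ccne1* was at 0.998, 0.949, and 1.28 CPM in WT.Tx and at 1.23, 1.73, and 2.95 CPM in KO.Tx, with a difference of 0.82 (edgeR adjusted p = 0.236). *Rpa2* had an edgeR adjusted p of 0.0254 with a fold of 1.43, under the threshold, so that *Mcm3* with a fold of 1.76 was the nearest above it. *Pcna* was higher in every KO.Tx liver than in WT.Tx, at 32.2 ± 1.9 CPM (SD, n = 8) and 27.1 ± 1.4 CPM (SD, n = 3), with a difference of 0.25 (edgeR adjusted p = 0.211). Differences of the genes not named here with the treatment ran from -0.59 for *Mcm10* (edgeR adjusted p = 0.15) to 0.90 for *E2f2* (edgeR adjusted p = 0.303), apart from *Orc1*, which had 0 to 2 counts in WT.Tx and 0 to 9 counts in KO.Tx.

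With 3 livers in WT.Tx, the count under treatment depended on single libraries. It was 3 without WT.Tx replicate 1, 2 without WT.Tx replicate 2, and 3 without WT.Tx replicate 3, KO.Tx replicate 1, or KO.Tx replicate 3. Without WT.Tx replicate 1 or WT.Tx replicate 3, only 2 of the 6 genes were kept. The added call was *Mcm10* with -0.86 (edgeR adjusted p = 0.0322) in the former fit and *Rpa2* with 0.61 (edgeR adjusted p = 0.0392) in the latter. Counts over all genes are not given for the fits without 1 library. The count of the 36 genes was 2 with the number series as a covariate, where 503 of all genes passed. It was 3 without the 3 libraries apart in their slope on gene length, where 402 of all genes passed. These 3 were 2 of the 6 genes and *Rpa2*, with 0.67 (edgeR adjusted p = 0.0102). With only the mice whose numbers have 4 digits it was 0, and 148 of all genes passed. Of 19 alternatives, *Mcm3* passed under 18, *Rfc4* under 15, *Mcm2* under 12, *Tk1* under 10, *Mcm5* under 9, and *E2f1* under 8. *Mcm3* alone kept its call without each single library in turn and was lost with only the mice with 4-digit numbers (edgeR adjusted p = 0.211). The 10 G2 and mitosis genes had a median difference of 0.52, and none passed the test. Their summed level was 9.13 to 10.9 CPM in WT.Tx and 8.58 to 28.6 CPM in KO.Tx, with the highest value in replicate 3. That library also had the lowest hepatocyte sum, 67650 CPM, and the highest cholangiocyte sum, 241.9 CPM, of the KO.Tx livers, and the part of these values in its high replication genes was not tested. Cholangiocyte sums were 32.3 to 38.5 CPM in WT.Tx and 50.4 to 241.9 CPM in KO.Tx, without overlap, although none of the 6 markers passed. Erythroid sums were 660.4 to 3153 CPM and 1205 to 7478 CPM, with a median log2 difference of 1.25 over 8 markers of which none passed. Hepatocyte sums were 113800 to 118400 CPM and 67650 to 142500 CPM, and 1 of 8 markers fell (*Serpina1a*). Of 6 endothelial markers *Lyve1* rose, while 4 lay below 0, and sums were 271.5 to 288.3 CPM in WT.Tx and 211.0 to 277.0 CPM in KO.Tx. Of 5 adipocyte markers *Cidec* rose, while the other 4 lay below 0 and did not pass. The median log2 difference of these 5 was -3.56. No marker of macrophages, stellate cells, T and NK cells, B cells, or neutrophils passed. The part of these markers in the differences of the replication genes was not tested. Of the 80 other replication genes, 2 rose (2.5%, against 1.61% of all genes), *Topbp1* (edgeR adjusted p = 0.015) and *Chaf1a* (edgeR adjusted p = 0.00951).

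Treatment and vehicle were then compared within each genotype. In controls, none of the 36 genes passed the test by edgeR, nor by DESeq2, and 1 had an unadjusted p under 0.05 (1476 of all 23972 genes did), while 0.0542% of all genes passed. The median log2 difference was -0.06, and all genes tested had a median of 0.00, but with the number series as a covariate the median of the 36 genes was 0.061. The 1 gene was *Cdc45*, at 0.77 ± 0.17 CPM (SD, n = 7) in WT.Veh and 1.20 ± 0.36 CPM (SD, n = 3) in WT.Tx, with a difference of 0.64 ± 0.26 (SE, edgeR adjusted p = 0.753). For 15 of the 36 genes the interval of the difference (2 SE each side) lay within a 1.5-fold change either way, and for 21 it reached beyond it, so that at this depth and n changes of that size could not be detected or dismissed for those 21 genes. Apart from *Orc1*, differences ran from -0.87 for *E2f2* to 0.84 for *Cdc7*.

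In *Lmna* ADKO mice, none of the 36 genes passed by edgeR, nor by DESeq2, and 3 had an unadjusted p under 0.05, while 0% of all genes passed by edgeR and 15 genes did by DESeq2. At an unadjusted p under 0.05 there were 1608 genes in all by edgeR. The median difference of the 36 genes was -0.12, with 25 below 0 and 11 above, and that of all genes tested was 0.00. *Mcm2* was at 9.15 ± 2.17 CPM (SD, n = 6) in KO.Veh and 6.29 ± 3.09 CPM (SD, n = 8) in KO.Tx, a difference of -0.54 ± 0.20 (SE, edgeR adjusted p = 0.704). KO.Tx replicate 3 had an *Mcm2* level of 13.9 CPM, against at most 5.70 CPM in the other 7 livers of the group. Without this library the difference was -0.82 (edgeR adjusted p = 0.01), and *Mcm2* then was the 1 gene of the 36 to pass. No other of the 14 fits that each left out 1 library called a gene of the 36. For the fit without KO.Tx replicate 3, the count over all genes is not given, so this call has no share beside it. *Dbf4* was at 2.88 ± 0.67 CPM (SD, n = 6) and 2.20 ± 0.60 CPM (SD, n = 8), with a difference of -0.39 ± 0.19 (SE, edgeR adjusted p = 0.704). *Tk1* was at 9.47 ± 1.59 CPM (SD, n = 6) and 14.04 ± 2.69 CPM (SD, n = 8), with a difference of 0.57 ± 0.23 (SE, edgeR adjusted p = 0.704), and *Afmid* moved beside it by 0.64 ± 0.27 (SE, edgeR adjusted p = 0.704). *Mcm3* changed least among the genes that passed in both genotype comparisons, with a difference of -0.05 and an interval of -0.27 to 0.17. The intervals of 20 of the 36 genes lay within a 1.5-fold change either way. No cell type marker passed in this comparison. All 8 hepatocyte markers (median log2 difference 0.39) and all 8 erythroid markers (1.10) were above 0, and the other marker lists had genes on both sides of 0. Cholangiocyte sums were 85.8 to 195.9 CPM in KO.Veh and 50.4 to 241.9 CPM in KO.Tx. The part of these markers in the differences of the 36 genes was not tested.

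The interaction of genotype and treatment passed for none of the 36 genes by edgeR or DESeq2, while 0.00417% of all genes passed by edgeR, and 2 genes of the 36 had an unadjusted p under 0.05, as did 1165 of all 23972 genes. These were *Cdc45*, with an interaction of -0.97 ± 0.33 on the log2 scale (SE, edgeR adjusted p = 0.984), and *Dbf4*, with -0.67 ± 0.32 (SE, edgeR adjusted p = 0.984). The loss of a call under treatment for *Mcm6*, *Dbf4*, *Cdc45*, and *Ccne1* is therefore not shown to be a difference between vehicle and treatment.

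**Figure D5:**
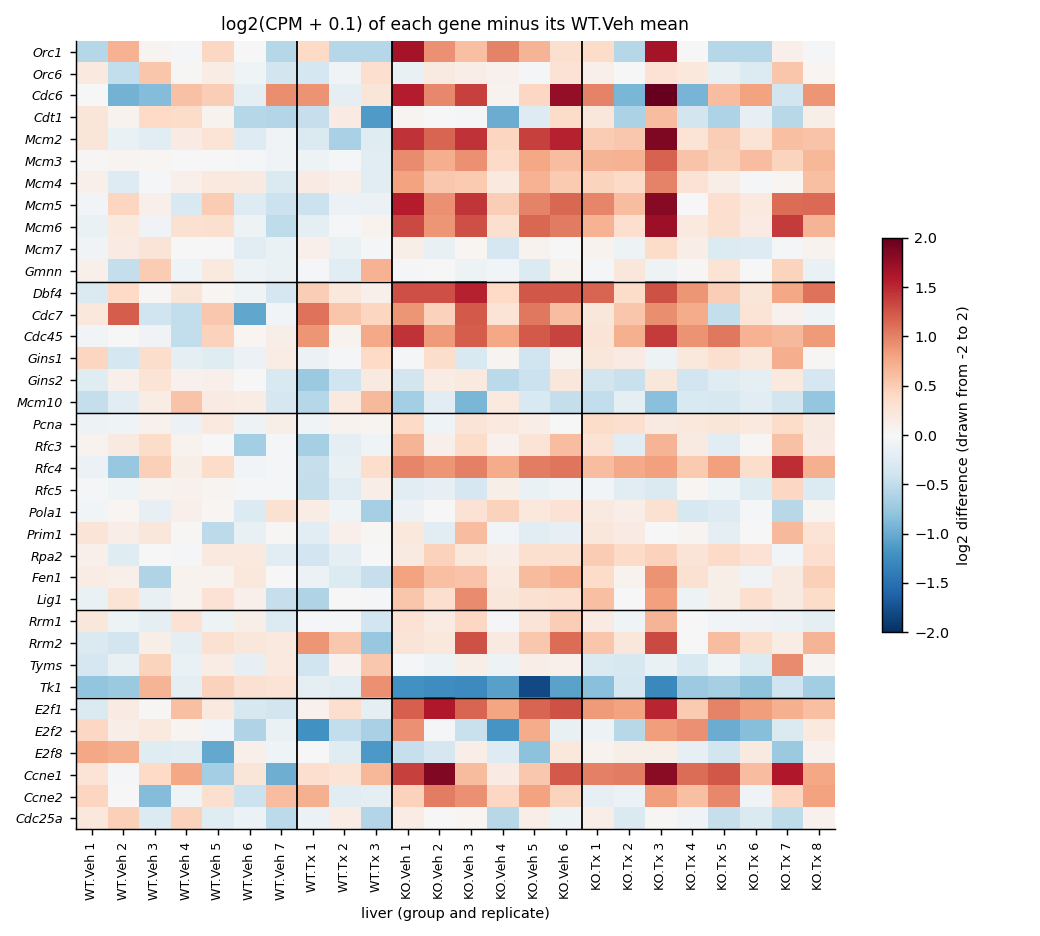
Log2(CPM + 0.1) of the 36 genes in each of 24 livers, minus the mean of the gene in WT.Veh, with colours limited to -2 and 2 and lines between groups and roles. Values above WT.Veh (red) for *Mcm2* to *Mcm6*, *Dbf4*, *Cdc45*, *Rfc4*, *E2f1*, and *Ccne1* and below it (blue) for *Tk1* fill the KO.Veh livers, KO.Veh replicate 4 is lowest of its group for 25 of the 36 genes, and KO.Tx replicate 3 is highest of its group for 21.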

How the data were processed

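Liver RNA was measured by RNA-Seq in 24 female mice. Per the labels, libraries were polyA-selected and strand-specific. The authors deposited whole-number counts of reads per gene without normalization, and by the methods they used Ensembl 102 annotation and removed genes with 0 counts in every sample. The submitters' processing notes list cutadapt 4.8, FastQC 0.11.8, STAR 2.7.8a, RSEM 1.3.3, and GRCm38, with no role given, so that counts may be rounded estimates. The strand setting of counting and the handling of reads that match several genes are not given in the sources used here. The labels name another sequencing provider than the methods. Total counts were 19863304 to 21510054 per library, and 3 counts correspond to 0.14 to 0.151 CPM, which covers counting error only.

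Groups were taken from the labels, and replicates were numbered in accession order. Nothing in the labels pairs libraries. P-values measure the spread between mice. Within groups, no library was a repeat of another. Chi-square divided by its degrees of freedom, for genes with 20 or more counts in a pair, was 14.1 to 195.6 in the 67 pairs. Libraries of different groups were not compared in this way, and all libraries were kept.

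Counts of all 23972 genes were fitted in 1 model of the 4 groups without covariates with edgeR 4.0.16 in R 4.3.3 (TMM, estimateDisp, robust glmQLFit, glmQLFTest), and p-values were adjusted over all genes by Benjamini-Hochberg. SE was derived from the log2 fold change and its F statistic, as the ratio of its size to the root of F. The script was tested on simulated data. Ratios to *Mcm7* were described without a test. Genes were placed with GENCODE M21 (GRCm38), and promoter windows came from RefSeq GRCm38.p6. Promoter windows were meant for the 5 genes with the smallest adjusted p under vehicle, of which that of *E2f1* was left out.

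The 36 genes and the other lists were chosen with earlier results of these data known, and no test was made over a list. Genes with values for every library or the range are those that passed in at least 1 comparison; of the other lists, each gene that passed under vehicle is named, with at most 3 per list given with values. Alternatives were DESeq2 1.42.0, DESeq2 size factors, filterByExpr, adjusted p alone, only the groups compared, the animal number series or the length slope as a covariate, leaving out the 3 libraries apart in that slope, only mice with 4-digit numbers, and leaving out each library.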

Additional observations from a re-analysis of the deposited data

Results flagged for a closer look

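In each group of 6 to 8 livers, the highest or lowest library was set against the others by Dixon's ratio on log2 CPM. Chance alone marks about 1 in 20 groups. The groups of different genes hold the same livers and are not independent, so the count of marks cannot be set against that rate. Of 108 groups tested over the 36 genes, 14 were marked, and 8 of the 14 came from KO.Tx and 4 from KO.Veh. KO.Tx replicate 3 stood apart with *Orc1* at 0.373 CPM (others 0 to 0.0919), *Mcm2* at 13.9 CPM (others 4.52 to 5.70), *Mcm3* at 11.0 CPM (others 6.64 to 7.90), and *Rrm1* at 17.6 CPM (others 9.55 to 12.3), all high. KO.Tx replicate 7, which also stood apart in its slope on gene length, was high for *Rfc4* at 6.11 CPM (others 2.75 to 3.82), *Rfc5* at 12.5 CPM (others 7.63 to 9.53), and *Tyms* at 13.6 CPM (others 5.63 to 7.32), and low for *Rpa2* at 6.46 CPM (others 8.08 to 9.65). KO.Veh replicate 4 was low for *Mcm2* at 5.06 CPM (others 8.47 to 11.0), *Dbf4* at 1.61 CPM (others 2.95 to 3.63), and *Cdc25a* at 2.63 CPM (others 3.63 to 4.35), and KO.Veh replicate 5 for *Tk1* at 6.43 CPM (others 9.43 to 10.8). In WT.Veh, replicate 6 was low for *Rfc3* at 2.58 CPM (others 4.14 to 5.42) and replicate 3 for *Fen1* at 2.21 CPM (others 3.41 to 3.99).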

How the results depend on the processing

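Under vehicle, the same 10 genes passed under each of the 8 alternatives that keep both groups whole or leave out the 3 libraries, with 10 to 14 genes in all, and 10 to 13 passed when 1 library was left out, *Ccne1* being lost without KO.Veh replicate 2. The median of the 36 genes under vehicle was 0.46 with the number series as a covariate, and 1604 of all 23972 genes passed in that fit. Under treatment, where 6 genes passed, the count was 2 with only the groups compared, 2 with the number series as a covariate, 3 without the 3 libraries apart in length slope, 0 with only 4-digit animal numbers, and 2 to 7 when 1 library was left out. In controls, the median difference between treatment and vehicle was 0.061 with the number series as a covariate, of opposite sign to the -0.06 reported, and -0.15 to 0.0027 when 1 library was left out. In *Lmna* ADKO mice, 0 to 1 genes passed when 1 library was left out. The cause of these shifts was not tested. Of the single values under the alternatives, 3798 kept their side of the threshold, 37 moved past it, 43 fell short of it, and 0 reversed. Counts over all genes of the genotype difference under treatment were 690 in the fit of all 4 groups, 344 with only the groups compared, 402 without the 3 libraries, 148 with 4-digit animal numbers, and 1022 by DESeq2, and those of the treatment in *Lmna* ADKO mice were 0 by edgeR, 2 with 4-digit animal numbers, and 15 by DESeq2. No paired analysis was possible because replicate numbers were given in accession order and no label pairs animals. *Orc1* and *Cdc7* had at most 9 counts in any library, and *Orc1* was at or under the floor of 3 counts in every control.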
